A study of Mus musculus with 6 samples.

Results

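mmu-miR-805 and mmu-miR-677, called miR-805 and miR-677 below by their usual names, are 2 mouse microRNA (miRNA) assays of a quantitative PCR panel. They were picked by name, case ignored, as the mouse-named assays for these miRNAs without a star. They are 2 of the 345 miRNA assays with a deposited normalized value, and each gave a threshold cycle (Ct) in all 6 samples. Both had been proposed because they were among the most reduced assays in DC-primed cells. The differences between the groups are therefore given as a description, with no test.

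All samples were CD8+ pMel-1 T cells of mice that carry a transgenic receptor for the melanoma antigen gp100, cultured in vitro for 3 days. In the 3 DC-primed samples the T cells were activated with bone marrow-derived dendritic cells matured with lipopolysaccharide. The other 3 samples, B cell-primed and labelled as controls, were activated with B cells of the spleen that carried a gp100 peptide. Each of 3 rounds gave 1 sample of each kind. Whether priming cells were removed before RNA extraction, and whether rounds used separate animals, is not given in the sources used here, so SDs measure only the spread between these samples.

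A miRNA is a short RNA cut from a hairpin precursor, and the bases next to its 5′ end (the seed) guide Argonaute proteins to messenger RNAs. Both entries lie outside the well-studied T cell miRNAs. miR-805 was catalogued as a short RNA encoded in mouse mitochondrial DNA. miR-677 is a rodent entry whose hairpin lies inside a nuclear gene for a mitochondrial protein. In this assay RNA is tailed with poly(A) and read with 1 specific forward primer, so longer RNAs that carry the same stretch may add to the signal.

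Sequences of RefSeq, build GRCm38.p6, were matched by name for miR-677, 1 of the 2 miRNAs. They are shown because the assay name does not say which arm of the hairpin it reads. The hairpin is at chr10:128085286-128085363 on the plus strand and is 78 bases long. Capitals mark the seed, bases 2 to 8, in the mature RNAs, and both mature arms in the hairpin.
miR-677-5p: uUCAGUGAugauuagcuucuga
miR-677-3p: gAAGCCAGaugccguuccugagaagg
Mir677 hairpin: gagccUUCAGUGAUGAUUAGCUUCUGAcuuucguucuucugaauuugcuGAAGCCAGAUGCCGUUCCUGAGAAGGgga

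The 5p arm, of 22 bases, had 36.4% G and C, and the 3p arm, of 26 bases, had 57.7%. Neither seed occurred in any other of the 1738 mature mouse miRNAs of the table. The hairpin lies within the bounds of Atp5b, on chromosome 10 from 128083307 to 128090388, which encodes the beta subunit of mitochondrial ATP synthase. The table lists no exons, so whether it is exonic or intronic is not given here. A small nucleolar RNA gene, Snord59a, lies in the same gene at 128084142 to 128084216. RNAs of that box C/D class, which guide methylation of other RNAs, carry a C box (core letters UGAUGA) near the 5′ end and a D box (CUGA) near the 3′ end. On the transcribed strand the Mir677 hairpin held UGAUGA at base 11 and CUGA further on, first at base 24 and last at base 67. UGAUGA occurred in 27 of 1005 mouse hairpins of the table (2.69%), and UGAUGA followed by CUGA in 5 of them (0.5%). Such matches are of letters only.

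Levels are minus dCt, where dCt is Ct minus 1 number per sample set by the authors. That held within 0.02 cycles for all assays with both values except miR-23a and miR-23b, whose deposited tables disagree. On this log2 scale 1 unit is a doubling per PCR cycle, and a higher value means more RNA. In rounds 1, 2 and 3, mmu-miR-805 had levels of 0.08, 1.32 and 2.69 after priming by dendritic cells, against 5.82, 4.42 and 4.98 after priming by B cells. All 3 DC-primed samples were below all 3 B cell-primed samples, with 1.74 units between the nearest samples of the groups. The DC-primed mean was 1.36 ± 1.30 and the B cell-primed mean 5.08 ± 0.70 (SD over 3 samples each). The difference was -3.71 ± 0.83 (limma's moderated SE), a level 13.1-fold lower in DC-primed cells. In bulk RNA, fewer cells that carry an RNA and less of it per cell cannot be told apart.

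mmu-miR-677 had DC-primed levels of -0.17, -2.56 and 0.70, against B cell-primed levels of 3.10, 1.61 and 2.97 in the same rounds. The groups did not overlap here either, and the nearest samples were 0.92 apart. The DC-primed mean was -0.68 ± 1.69 and the B cell-primed mean 2.56 ± 0.82 (SD over 3 samples each), a difference of -3.24 ± 0.95 (SE) or 9.4-fold. The authors' deposited table gives a fold change, DC-primed over B cell-primed, of 0.0762 for miR-805 and 0.1058 for miR-677.

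**Figure D1:**
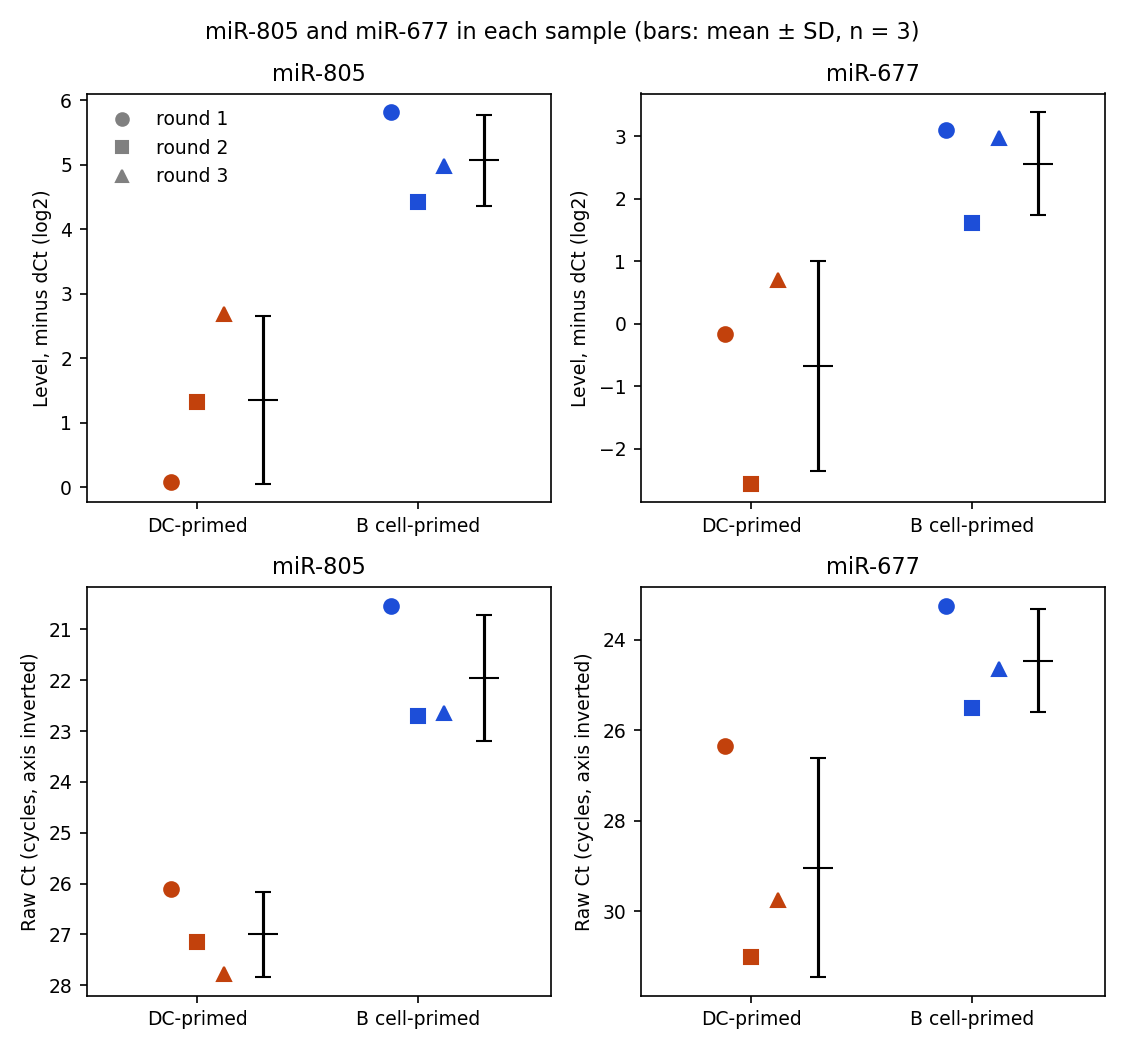
Levels on the authors' scale (top, log2) and raw Ct in cycles (bottom, axis inverted so that up means more RNA) of miR-805 (left) and miR-677 (right) in DC-primed and B cell-primed samples. Each point is 1 sample, its shape gives the round, and bars are the mean ± SD of 3 samples; in all 4 panels the DC-primed points lie below the B cell-primed ones.

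The order of the samples was shared in part. In B cell-primed cells both miRNAs were highest in round 1 and lowest in round 2. Among DC-primed samples both were highest in round 3, but miR-805 was lowest in round 1 and miR-677 in round 2. The first 3 places of the order, from high to low, were the B cell-primed samples of rounds 1, 3 and 2 for both. For miR-677 the round 1 and round 3 samples of that group were close, at 3.10 and 2.97, nearer to each other than the group's SD. For miR-805 the round 2 and round 3 samples of that group, at 4.42 and 4.98, were also nearer to each other than its SD.

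The gap between the 2 assays is set by primer efficiency as well as by amount, so it is compared only across samples. miR-805 minus miR-677 was 0.25, 3.88 and 1.99 in DC-primed samples, against 2.72, 2.81 and 2.01 in B cell-primed samples. The averages were 2.04 ± 1.82 for DC-primed and 2.51 ± 0.44 for B cell-primed cells (SD over 3 samples each). The gap scattered more among DC-primed than among B cell-primed samples, and its means differed by less than the DC-primed SD.

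Within the panel, miR-805 stood at places 130, 78 and 51 of 345 from the highest level in DC-primed samples, against places 12, 29 and 18 in B cell-primed samples. miR-677 stood at places 141, 238 and 88 in DC-primed samples, against 48, 81 and 42 in B cell-primed samples. miR-805 was thus among the assays with the earliest signal in every control sample and further down the panel after priming by dendritic cells. These places rest on unlike primers and describe signal, not copy number.

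Raw Ct values carry no scaling. miR-805 came up at 26.10, 27.14 and 27.77 cycles in DC-primed samples, against 20.53, 22.70 and 22.65 cycles in B cell-primed samples. That is 5.57, 4.44 and 5.12 cycles later in the DC-primed sample of rounds 1, 2 and 3, a fairly even delay with a mean of 5.04. miR-677 came up at 26.35, 31.02 and 29.76 cycles in DC-primed samples, against 23.25, 25.51 and 24.66 cycles in B cell-primed samples. Its delay was 3.10, 5.51 and 5.10 cycles, with a mean of 4.57. The groups did not overlap in raw Ct for either miRNA.

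The authors' number in the DC-primed sample minus that in the B cell-primed sample of the round was -0.17, 1.34 and 2.82 cycles in rounds 1, 2 and 3. Subtracting it left miR-805 differences of -5.74, -3.10 and -2.29, so its even raw delay became uneven after scaling. For miR-677 the scaled differences were -3.27, -4.17 and -2.28. The order of the DC-primed samples turned round for miR-805: round 1 had the earliest Ct of the 3 and the lowest scaled level.

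The small RNAs RNY3, a Y RNA, and snoRD47, a box C/D small nucleolar RNA, were read as controls in 8 wells each. The Ct table falls into 4 stretches of 94 rows, each with its own control wells, and both miRNAs are in the second. There RNY3 came up 0.91, 3.72 and 1.41 cycles later in DC-primed cells of rounds 1, 2 and 3, and snoRD47 1.89, 3.39 and 1.82 cycles later. Both controls were thus late in DC-primed cells too, by less than either miRNA in every round. Relative to these wells miR-805 differed by -4.17, -0.88 and -3.51 and miR-677 by -1.70, -1.95 and -3.49. All 3 DC-primed samples stayed below all 3 B cell-primed samples for both miRNAs, relative to each control alone as well. Both were chosen for being low in DC-primed cells, and the share of all assays without overlap under these scalings was not computed. The mean differences were -2.85 for miR-805 and -2.38 for miR-677. Over all stretches the wells of a sample differed widely, with SDs between 1.59 and 2.80 cycles (RNY3) and between 2.97 and 6.05 cycles (snoRD47), which limits this scaling.

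**Figure D2:**
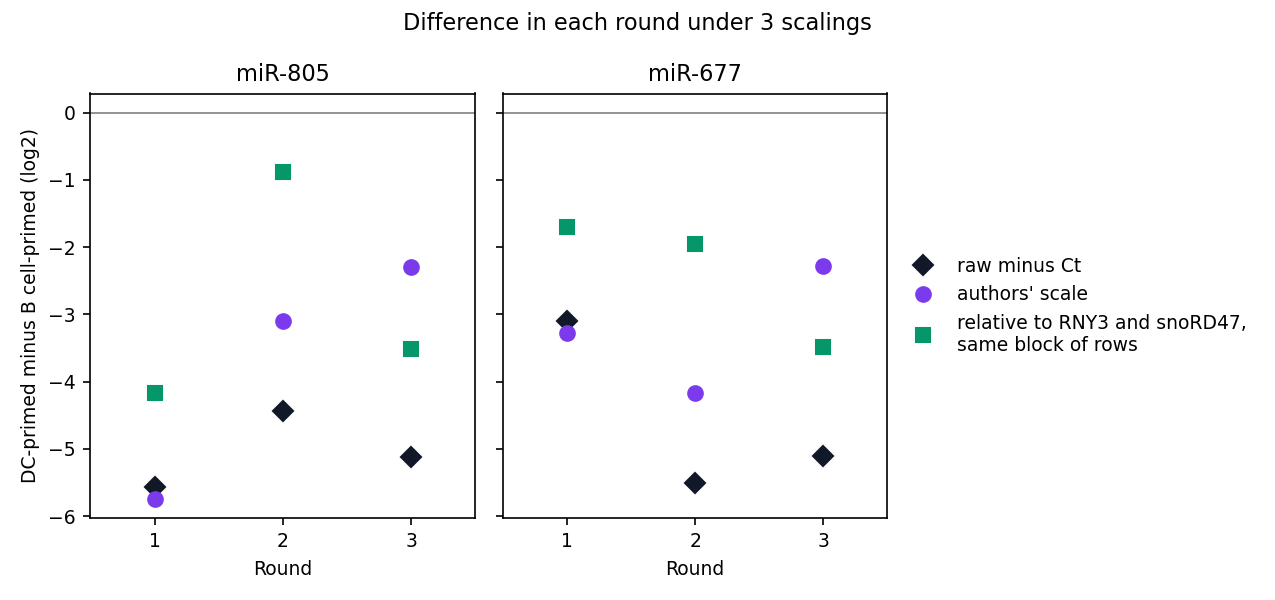
Difference of DC-primed minus B cell-primed (log2) in each of 3 rounds for miR-805 (left) and miR-677 (right). Diamonds are raw minus Ct, circles the authors' scale and squares the scaling to RNY3 and snoRD47 wells of the same stretch of rows; every point is below 0, from -5.74 to -0.88 for miR-805.

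The worm assay cel-mir-67, for which the sources used here give no role, came up 4.40 and 2.15 cycles earlier in the DC-primed sample of rounds 1 and 3 and 5.79 cycles later in round 2. Its differences by round had no common direction. Those of miR-805 and miR-677 did, but both were chosen for being low in DC-primed cells, so nothing is drawn from this contrast. The DC-primed sample of round 3 had the latest signal over the panel, with a mean Ct of 30.5 over the tested assays, against 26.26 to 28.43 in the other samples. In that sample 280 assays came up before cycle 35, against 327 to 341 in the others. Without it the difference of miR-805 was -4.38 and that of miR-677 was -3.93.

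An assay entered the comparison over the whole panel if its Ct was below 35 in all 6 samples, which 274 of 345 did. limma called 0 of these 274 (0%) at a Benjamini-Hochberg adjusted p under 0.05, and 24 had an unadjusted p under 0.05. By size, the difference of miR-805 was the lowest of the 274 and that of miR-677 was in place 5. Among the assays ahead of miR-677 was miR-23a, whose deposited Ct and dCt values disagree. These places depend on single samples: miR-805 was in place 10 without DC-primed sample 1 and in place 17 without both samples of round 1, and miR-677 in place 12 without DC-primed sample 2. Over all 345 assays they were in places 4 and 10, the added places ahead of them being held by assays that were not tested. All 3 DC-primed samples lay below all 3 B cell-primed samples in 22 assays (8.03%) on the authors' scale and in 26 (9.49%) in raw Ct, both miRNAs among them in each case. In 35 assays (12.8%) the DC-primed sample was the lower one in every round. The median difference of the 274 assays was 0.07, with 128 negative and 146 positive. Without normalization the median was -1.26, with 249 negative and 24 positive, and relative to all RNY3 and snoRD47 wells it was 1.30, with 36 negative and 238 positive. Both miRNAs were below 0 under all 3 scalings.

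**Figure D3:**
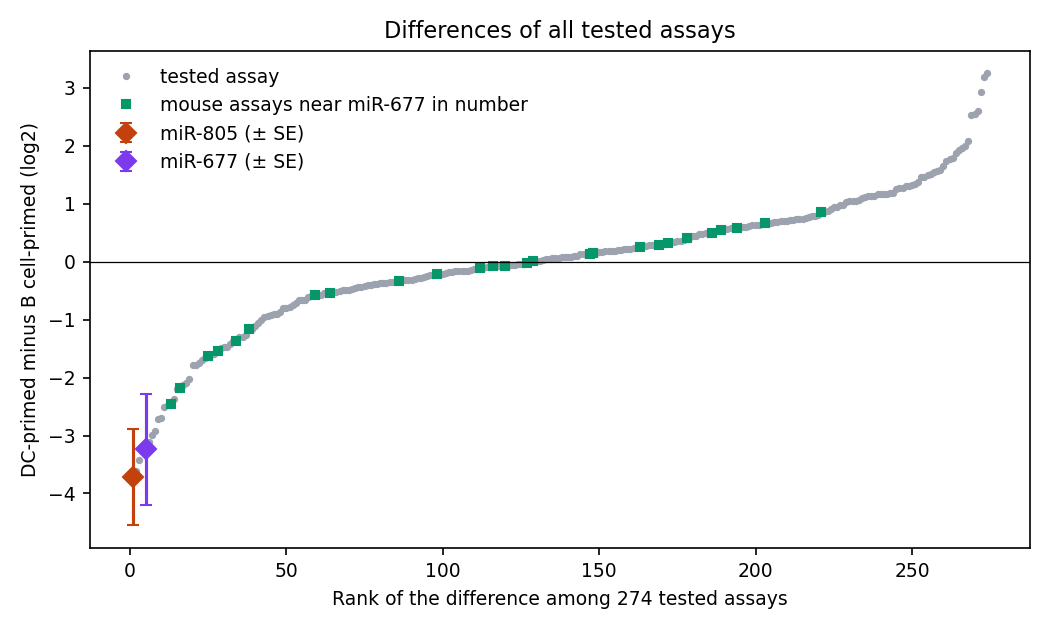
Differences of DC-primed minus B cell-primed (log2, authors' scale) for 274 tested assays in order of size, with miR-805 and miR-677 as diamonds with SE bars and other mouse assays near miR-677 in number as squares. The squares run from -2.46 to 0.86, with 53 assays above the highest of them and both diamonds at the low end of the order.

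The spread of both miRNAs between samples was ordinary for the panel. Of 274 assays, 154 had a smaller SD than miR-805 among DC-primed samples and 159 among B cell-primed samples. For miR-677 these numbers were 192 among DC-primed and 191 among B cell-primed samples. The median SD over assays was 1.20 for DC-primed and 0.63 for B cell-primed samples.

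The assays whose profile over the 6 samples was most like each miRNA were found by the root mean square difference between levels after taking off each assay's own mean. This measure is the same under any scaling that subtracts 1 number per sample. It was 1.10 between miR-805 and miR-677, and each stood in place 5 of 273 in the other's order, where the median assay was at 2.22. The 3 nearest to miR-805 were miR-758 at 0.69, miR-712 at 0.75 and miR-487b at 0.95. The 3 nearest to miR-677 were miR-712 at 0.84, miR-487b at 0.92 and miR-92b at 0.99. Since likeness to these miRNAs includes their difference between the groups, the differences of these neighbours were chosen with it.

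miR-712, whose sequence comes from a spacer of the ribosomal RNA precursor, had levels of 2.09, 2.02 and 3.59 in DC-primed samples, against 5.74, 4.43 and 4.90 in B cell-primed samples. It differed by -2.46 ± 0.74 (SE), without overlap, and like both miRNAs was highest in round 3 among DC-primed and in round 1 among B cell-primed samples. miR-758 and miR-487b come from the imprinted Dlk1-Dio3 locus of chromosome 12. miR-758 differed by -2.37 ± 0.85 and miR-487b by -2.10 ± 0.73. miR-92b, a relative of miR-92a, differed by -1.79 ± 0.69. None of these 4 passed the test.

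Mature sequences of RefSeq were found for 3 of these 4 neighbours and are shown, seeds in capitals, to give the RNAs behind these names. The assay names do not give the arm. For miR-487b only the 5p arm was found, so its 3p arm is not shown. Neither miR-677 seed occurred in any other mature miRNA of the table, so none of these seeds could match. Nothing is drawn from that.
miR-758-5p: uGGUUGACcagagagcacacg
miR-758-3p: uUUGUGACcugguccacua
miR-487b-5p: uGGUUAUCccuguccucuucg
miR-92b-5p: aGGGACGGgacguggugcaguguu
miR-92b-3p: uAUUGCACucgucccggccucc

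**Figure D4:**
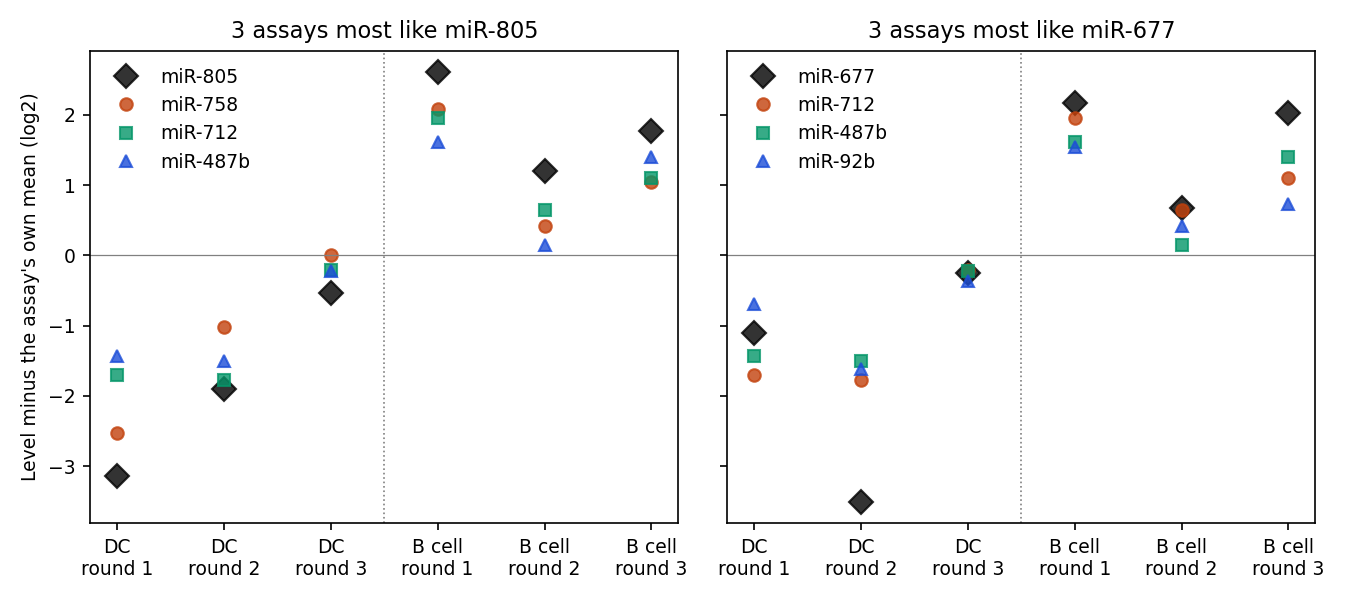
Levels minus each assay's own mean (log2) in the 3 DC-primed samples and the 3 B cell-primed samples for miR-805 (left) and miR-677 (right), as diamonds, with the 3 assays most like each. Within each panel all 4 assays are highest in round 1 of the B cell-primed samples, and the diamonds reach furthest from 0 in most samples.

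miR-677 carries a number among mouse miRNAs catalogued at about the same time. Of the other mouse assays near it in number, 35 were on the panel and 26 were tested. limma called 0 higher and 0 lower. In 14 the difference was negative and in 12 positive, with a median of -0.04, while all 26 were negative without normalization and 5 were relative to RNY3 and snoRD47. They ran from miR-712 at -2.46 ± 0.74 (SE) to miR-689 at 0.86 ± 1.52. All DC-primed samples lay below all B cell-primed samples in 3 of the 26, miR-712, miR-705 at -2.18 ± 0.73 and miR-667 at -1.62 ± 0.74. That is 11.5% of the list, near the 8.03% over all tested assays.

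A list of 9 mouse entries, drawn up around those that overlap ribosomal or transfer RNA, of which 7 were on the panel and tested, had 0 calls and a median difference of -0.58. Of the 7, 5 were negative (all 7 with no scaling and 2 when scaled to the control RNAs), with miR-712 the lowest, and 1, miR-712, was without overlap. Among all tested assays 8.03% had every DC-primed sample below every B cell-primed one. miR-720, a transfer RNA fragment, was at -1.53 ± 1.17 (SE), and the highest was miR-689. All 7 also belong to the list of neighbouring numbers.

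Of the mouse assays for miRNAs of chromosome 10, where Mir677 lies, 6 were on the panel and 5 were tested, with 0 calls. Their median difference was 0.50, with 1 negative and 4 positive, against 5 negative without normalization and 5 positive relative to RNY3 and snoRD47. They ran from miR-546 at -0.66 ± 0.69 (SE) to miR-763 at 0.94 ± 1.06. let-7i*, not tested because of a late Ct, was the only one of the 6 without overlap on the authors' scale, at -1.46. In raw Ct its groups overlapped. Over all tested assays 8.03% had every DC-primed sample below every B cell-primed one on the authors' scale. miR-26a also has a gene elsewhere.

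Marker miRNAs of several cell types are given beside these values, on the authors' scale unless said. The lymphocyte list includes markers of T cells, the cells sampled here. Of 5 myeloid and dendritic markers all 5 were on the panel, 3 were tested, and the means of all 5 were higher in DC-primed cells. Their summed linear level was 2.56 to 154 in DC-primed samples, against 1.77 to 5.75 in B cell-primed samples, so the groups overlapped. In DC-primed sample 3, miR-223 (-6.53), miR-146b (-8.31) and miR-146a (-1.01) were below all B cell-primed samples. In that sample miR-22, at 0.18, lay within the B cell-primed range and miR-147, at -0.11, above it. Differences of the tested myeloid and dendritic markers ran from miR-146a at 0.62 ± 1.21 (SE) to miR-147 at 3.25 ± 1.17. Of 5 miRNAs of lymphocytes, all 5 were higher in DC-primed cells by their means, and their summed level was 272 to 462 in DC-primed samples, against 64 to 178 in B cell-primed samples. One of them, miR-142-3p, had no Ct in DC-primed sample 3, and the value the authors filled in there makes up most of that sample's sum. Without this assay the summed level for rounds 1, 2 and 3 was 322, 373 and 17.3 in DC-primed cells, against 59.2, 108 and 73.3 for B cell-primed cells, so DC-primed sample 3 was the lowest and the groups overlapped. Such sums mix unlike primers and are led by the assay with the highest level. Among these 4 lymphocyte assays that was miR-155, except in DC-primed sample 3, where it was miR-150. Without normalization all 4 tested lymphocyte markers and 1 of the 3 tested myeloid and dendritic ones were lower in DC-primed cells. The 3 erythroid markers had a summed level of 0.96 to 5.28 in DC-primed samples, against 2.33 to 4.25 in B cell-primed samples. The stromal and endothelial markers, 5 of 6 on the panel, had one of 0.507 to 2.77 in DC-primed samples, against 1.20 to 1.31 in B cell-primed samples. Tested members ran from miR-155 at 0.37 to miR-181a at 1.31 for lymphocytes, from miR-486 at -0.66 to miR-451 at 1.31 for erythroid cells and from miR-199a-3p at -0.09 to miR-214 at 1.25 for stromal and endothelial cells. miR-126-3p of the last list, not tested because of late Ct values, had levels of -4.25, -11.35 and -8.53 in DC-primed samples, against -3.06, -1.86 and -4.23 in B cell-primed samples. The groups did not overlap on the authors' scale but did in raw Ct. miR-147 and miR-451 were without overlap in the other direction on the authors' scale, and overlapped in raw Ct. Of the 274 tested assays, 15 had all DC-primed samples higher on the authors' scale and 22 had them lower. No list had a call in limma's test, and the part of cells other than T cells in the levels of miR-805 and miR-677 was not tested.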

How the data were processed

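Total RNA of 6 samples was read by SYBR Green quantitative PCR after poly(A) tailing, per the labels' protocols. Per the file headers, one deposited table holds raw Ct values in cycles, an unscaled log2 measure with the sign turned. A second holds the authors' dCt, log2 values with the sign turned, scaled to the geometric mean of a sample's Ct values, with the authors' p-value of a paired test, which is not used here. Their file names are swapped relative to their headers, which the values fit. The last deposited table holds the authors' fold change, a ratio with DC-primed on top. For both miRNAs Ct minus dCt equalled the authors' number of each sample. That number was not the geometric mean of all Ct values of the sample. It was 26.182 against a geometric mean of 26.519 in DC-primed sample 1, and 26.353 against 26.85 in B cell-primed sample 1. The geometric mean was the higher in each of the 6 samples, so the authors' number was not reproduced.

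Minus dCt of 274 assays with Ct below 35 in all samples was fitted with limma's lmFit and eBayes (version 3.58.1, under R 4.3.3, without a block, two-sided, Benjamini-Hochberg adjustment, threshold 0.05). The fit was also run on simulated data with differences larger than that of any tested assay. That run does not show what the fit can detect at the sizes seen. Python 3.11.15 with matplotlib 3.10.9 made the figures. The miRNAs and lists were chosen with earlier results of these data known. The named assays are both miRNAs, the 3 assays most like each, and the largest and smallest tested difference of each list; miR-705, miR-667, miR-720, let-7i*, miR-126-3p, miR-142-3p, miR-23a, miR-23b and miR-26a were named after their values were seen. Round numbers are from the titles. Deviations from the group means of same-round samples correlated across assays at 0.162, 0.142 and 0.457 in rounds 1, 2 and 3. DC-primed sample 1 correlated at 0.335 with B cell-primed sample 2, so these values bear out a pairing by round only weakly. Samples of a round were set against each other for the differences by round, while the main fit left the round out. The number of samples limits the precision. Depth has no counterpart in Ct values.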

Additional observations from a re-analysis of the deposited data

How the results depend on the processing

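No alternative turned the sign of either difference. The miR-805 difference moved by more than 1 SD (1.05) without normalization (-5.04), relative to all RNY3 and snoRD47 wells (-2.49) and to snoRD47 alone (-2.14), the last chosen after seeing the data. The miR-677 difference moved by more than 1 SD (1.33) without normalization (-4.57) and relative to snoRD47 alone (-1.67). These settings shift every assay: the median difference of the 274 assays was -1.26 without normalization, 1.30 relative to both controls and 1.64 relative to snoRD47. Leaving out samples gave -4.42 to -2.70 for miR-805 and -3.93 to -2.30 for miR-677. limma called 0 assays under the other settings, and 0 to 2 with samples left out. The 2, without the DC-primed sample of round 3, were miR-805 and miR-222 (smallest adjusted p = 0.0469, over alternatives 0.0469 to 1), and since miR-805 was chosen by this contrast its call supports nothing. With the round as a replicate block 0 were called (smallest adjusted p = 0.0522) and the SE was 0.85 for miR-805 and 0.80 for miR-677, so the pairing changed no call. With a Ct limit of 30, miR-677 was not tested.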
